A study of Mus musculus with 9 samples.

Results

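A set of 6 metalloproteinase genes and 4 TIMP genes were followed in cultured adult mouse cardiac fibroblasts. They were Mmp2, Mmp14, Mmp11, Mmp16, Mmp19 and Mmp23, all outside the metalloproteinase cluster of chromosome 9, together with the inhibitors Timp1, Timp2, Timp3 and Timp4. The members were listed by gene family, and all 10 were found among the 38924 gene identifiers of the count table. Of these, 9 were tested in every comparison and Timp4 was at 0 counts in all 9 libraries.

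Bulk RNA sequencing compared 3 groups of 3 libraries, lettered a, b and c. The cells of every group, control included, came from RosaCas9-EGFP mice of 8 to 10 weeks on a C57BL/6 background and therefore carried Cas9 and the green fluorescent protein. They were cultured for 3 days, sorted as CD45-, CD31- and CD90+ cells, replated, and transfected 6 days later at 80 to 90% confluency. The control group received scrambled guides, the Gata4 KD group 2 guides against Gata4 and the Tbx20 KD group 2 guides against Tbx20, each target being a transcription factor of the heart. The knockdowns are pools of transfected cells, in which edited and unedited cells cannot be told apart. The study calls the libraries of a group biological replicates. Neither its text nor the labels say whether these came from separate animals or separate cultures, so p-values measure the spread between these libraries.

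Libraries held 31214828 to 41950397 counts. Values are counts per 1000000 counts (CPM) after scaling by the trimmed mean of M values (TMM), with factors of 0.973 to 1.022. Gata4 was at 155 to 167 CPM in control, at 54.0, 46.7 and 65.5 CPM in Gata4 KD a, b and c, and at 178 to 198 CPM in Tbx20 KD. It fell in Gata4 KD against control (log2 fold change -1.55, SE 0.12, edgeR quasi-likelihood test, adjusted p = 0.00272). Tbx20 was at 720 to 1276 CPM in control, 513 to 909 CPM in Gata4 KD and 320 to 428 CPM in Tbx20 KD. All 3 Tbx20 KD libraries lay below all 3 controls, at a log2 fold change of -1.35 (SE 0.21), but this did not pass the correction over all genes (edgeR, adjusted p = 0.748). The 6 fibroblast markers summed to 8071 to 9006 CPM in control, 5979 to 8520 in Gata4 KD and 7615 to 9412 in Tbx20 KD. Col1a1 was at 2672 to 3705 CPM in Gata4 KD and 3969 to 4069 in control, without overlap. Pdgfra and Lum had higher means in Gata4 KD than in control. Over the 9 libraries the 5 cardiomyocyte markers summed to 0.498 to 1.77 CPM, with Pln at 0 in every library.

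Matrix metalloproteinases are zinc enzymes that cut collagens, other matrix proteins and cell-surface proteins, and they are made as inactive proenzymes. TIMPs bind the active site of the enzyme and block it, and a matrix-producing fibroblast makes both sides of this balance. Mmp14, anchored in the cell membrane, activates the secreted gelatinase Mmp2 in a complex that also holds Timp2, so the same inhibitor takes part in activation.

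On GRCm38 the members lie apart from each other, on 7 chromosomes. Chromosome 10 holds 3 of them, Mmp11 (ENSMUSG00000000901, chr10:75923222-75936496, minus strand), Timp3 (ENSMUSG00000020044, chr10:86300372-86349506, plus strand) and Mmp19 (ENSMUSG00000025355, chr10:128790910-128800824, plus strand). Chromosome 4 holds Mmp16 (ENSMUSG00000028226, chr4:17852893-18119145, plus strand) and Mmp23 (ENSMUSG00000029061, chr4:155650655-155653384, minus strand). The others are Mmp2 (ENSMUSG00000031740, chr8:92827291-92853420, plus strand), Mmp14 (ENSMUSG00000000957, chr14:54431612-54445364, plus strand), Timp1 (ENSMUSG00000001131, chrX:20870166-20874735, plus strand), Timp2 (ENSMUSG00000017466, chr11:118301069-118355740, minus strand) and Timp4 (ENSMUSG00000030317, chr6:115241892-115252205, minus strand). All are protein-coding, and their annotated exons together covered 888 bases in Timp1, the shortest, and 8667 bases in Mmp16, the longest.

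The catalytic zinc of a metalloproteinase is held by 3 histidines in a short conserved stretch, and the 6 enzymes are shown there because this is the part by which they are recognised as a family. The coding strand of GENCODE M21 transcripts (GRCm38) is given 5′ to 3′, with capitals marking, in order, the codons of the first histidine, the catalytic glutamate, the second histidine, a conserved glycine and the third histidine.
Mmp2, chr8:92839279-92839311, plus strand, exon 8: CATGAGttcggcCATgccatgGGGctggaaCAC
Mmp14, chr14:54437627-54437659, plus strand, exon 5: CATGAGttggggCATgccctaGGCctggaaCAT
Mmp16, chr4:18051748-18051780, plus strand, exon 5: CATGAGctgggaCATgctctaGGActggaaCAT
Mmp11, chr10:75926931-75926963, minus strand, exon 5: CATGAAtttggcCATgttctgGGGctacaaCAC
Mmp19, chr10:128795673-128795705, plus strand, exon 5: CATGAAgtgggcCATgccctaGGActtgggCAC
Mmp23, chr4:155651528-155651560, minus strand, exon 5: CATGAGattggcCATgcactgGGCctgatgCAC
The membrane-type enzymes Mmp14 and Mmp16 shared 29 of these 33 bases, more than any other pair. The lowest identity was 23 of 33 bases, between Mmp11 and each of Mmp14, Mmp16 and Mmp19 and between Mmp16 and Mmp23.

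The inhibitors meet that zinc with their N-terminus, which begins with a cysteine, any residue and a further cysteine. The first 27 coding bases of the mature inhibitors are given in the same way, with the codons of both cysteines in capitals.
Timp1, chrX:20871111-20871137, plus strand, exon 2: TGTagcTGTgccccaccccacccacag
Timp2, chr11:118354986-118355012, minus strand, exon 1: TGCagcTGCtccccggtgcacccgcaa
Timp3, chr10:86300923-86300949, plus strand, exon 1: TGCacaTGCtctcccagccatccccag
Timp4, chr6:115251665-115251691, minus strand, exon 1: TGCagcTGTgcgcctgcgcacccccag
Identity ran from 16 of 27 bases between Timp1 and Timp3 to 21 of 27 between Timp1 and Timp4. Stretches of 75 bases, the read length, were taken from every annotated transcript of the 10 members. None occurred without a mismatch on the same strand of a transcript of another gene, and copies with mismatches were not sought. Timp1, Timp3 and Timp4 lie inside Syn1, Syn3 and Syn2, which run on the opposite strand, and 1733 exonic bases of Timp3 overlap Syn3. Mmp19 shares 789 exonic bases with Tmem198b and Mmp11 shares 155 with Chchd10, each on the opposite strand. The reads were stranded and the study counted them by strand.

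The guides are shown with the 3 bases that follow each on its own strand, the PAM, in capitals. They were matched to exons of the same annotation, 2 in the sense of the transcript and 2 antisense to it.
Gata4_sgRNA1, chr14:63204711-63204730, exon 3, sense: cagagagtgtgtcaattgtgGGG
Gata4_sgRNA3, chr14:63240581-63240600, exon 2, antisense: gcaggactgggctgtcgaagGGG
Tbx20_sgRNA2, chr9:24770708-24770727, exon 2, sense: caaattccatgaactgggcaCGG
Tbx20_sgRNA3, chr9:24765732-24765751, exon 4, antisense: gagctgctcgccagtaaaggGGG
Since each guide lies in an exon, an edited transcript that is still made is counted, and the CPM of the targeted gene does not measure the share of edited alleles.

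Compared per length, the detected inhibitors stood above the enzymes followed here. In control, Timp1 was at 801 ± 64.9 CPM per kilobase of annotated exon (SD, n = 3), Timp2 at 291 ± 24.2 and Timp3 at 151 ± 16.3. The highest enzyme was Mmp14 at 68.5 ± 1.84 CPM per kilobase, followed by Mmp2 at 52.8 ± 9.82. Mmp23 came next at 15.3 ± 0.381, then Mmp16 at 8.90 ± 2.07, Mmp19 at 8.33 ± 1.74 and Mmp11 at 5.21 ± 0.611 CPM per kilobase. The ranges of the 3 control libraries did not overlap between any neighbours in this order except Mmp16 and Mmp19. The order was the same when the length of the longest transcript replaced the exon length, though the values of Timp3, Mmp14, Mmp16 and Mmp23 were then 1.5 times higher or more, at 260, 126, 15.4 and 24.9 CPM per kilobase.

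**Figure D1:**
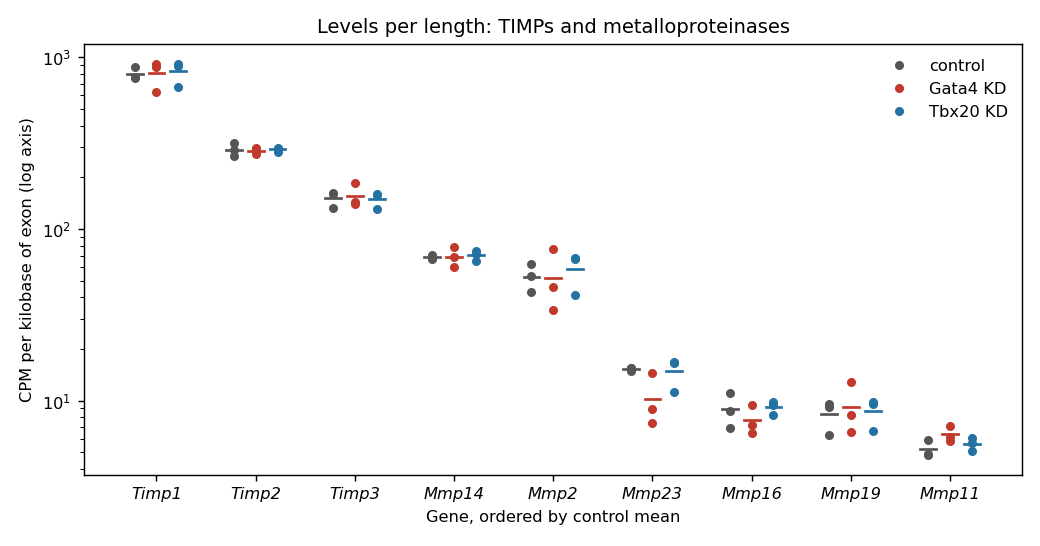
Level per kilobase of exon (CPM per kilobase, log axis) of the 9 detected members, ordered by the control mean, in control, Gata4 KD and Tbx20 KD. Points are libraries and bars are means of 3; Timp1 is highest at 801 in control and Mmp11 lowest at 5.21, and the colours overlap for most genes.

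Timp4, the TIMP best known from heart tissue, was not detected. A count of 0 in each library allows up to 3 counts, which is 0.0710 to 0.0945 CPM by library, for counting error only.

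Mmp2, the gelatinase that cuts denatured collagen, was at 180, 210 and 144 CPM in control a, b and c. It was at 156, 113 and 259 CPM in Gata4 KD and at 140, 224 and 228 CPM in Tbx20 KD. Both the highest and the lowest library of all 9 were Gata4 KD libraries, and the groups overlapped. Mmp14 was at 420, 399 and 406 CPM in control, 411, 358 and 466 CPM in Gata4 KD, and 390, 427 and 445 CPM in Tbx20 KD. Its extremes were the same 2 Gata4 KD libraries, b and c, but only 1.30-fold apart, against 2.29-fold for Mmp2.

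Mmp16, a second membrane-anchored enzyme, was at 75.0, 96.0 and 60.3 CPM in control, 62.7, 56.0 and 82.1 CPM in Gata4 KD, and 71.4, 81.4 and 85.5 CPM in Tbx20 KD. Its control libraries spanned almost the whole range. Mmp11, a stromal enzyme that is activated by furin inside the cell, was at 13.6, 13.4 and 16.4 CPM in control, 16.2, 17.1 and 19.7 CPM in Gata4 KD, and 14.1, 15.8 and 16.8 CPM in Tbx20 KD. Among the controls only control c lay above the lowest of the Gata4 KD libraries, Gata4 KD a, as did Tbx20 KD c. Mmp19, a secreted enzyme, was at 32.4, 33.6 and 22.4 CPM in control, 29.2, 23.2 and 45.5 CPM in Gata4 KD, and 23.6, 33.9 and 34.8 CPM in Tbx20 KD. The lowest and highest libraries, control c and Gata4 KD c, lay 2.03-fold apart.

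Mmp23, a membrane protein that is released when furin-like proteases cut it, was at 36.2, 36.4 and 34.7 CPM in control. In Gata4 KD it was at 20.8, 17.3 and 33.8 CPM, and in Tbx20 KD at 26.3, 38.6 and 39.1 CPM. The control libraries lay close together (2.49% coefficient of variation), all 3 Gata4 KD libraries lay below them, and Gata4 KD c lay just below while a and b were well apart. Tbx20 KD b and c lay above control and Tbx20 KD a below.

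Among the inhibitors, Timp1, which blocks most secreted metalloproteinases, was at 777, 670 and 687 CPM in control, 781, 558 and 810 CPM in Gata4 KD, and 599, 818 and 794 CPM in Tbx20 KD. Each knockdown group had 1 library below all controls and 2 above. Timp2 was at 1232, 1045 and 1120 CPM in control, 1132, 1068 and 1151 CPM in Gata4 KD, and 1162, 1095 and 1141 CPM in Tbx20 KD. It was the steadiest member, 1.18-fold from lowest to highest, and both extremes were control libraries. Timp3, the inhibitor that binds to the matrix, was at 1296, 1317 and 1077 CPM in control, 1164, 1145 and 1518 CPM in Gata4 KD, and 1067, 1279 and 1294 CPM in Tbx20 KD. Gata4 KD c alone lay above the control range, and Tbx20 KD a just below it.

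**Figure D2:**
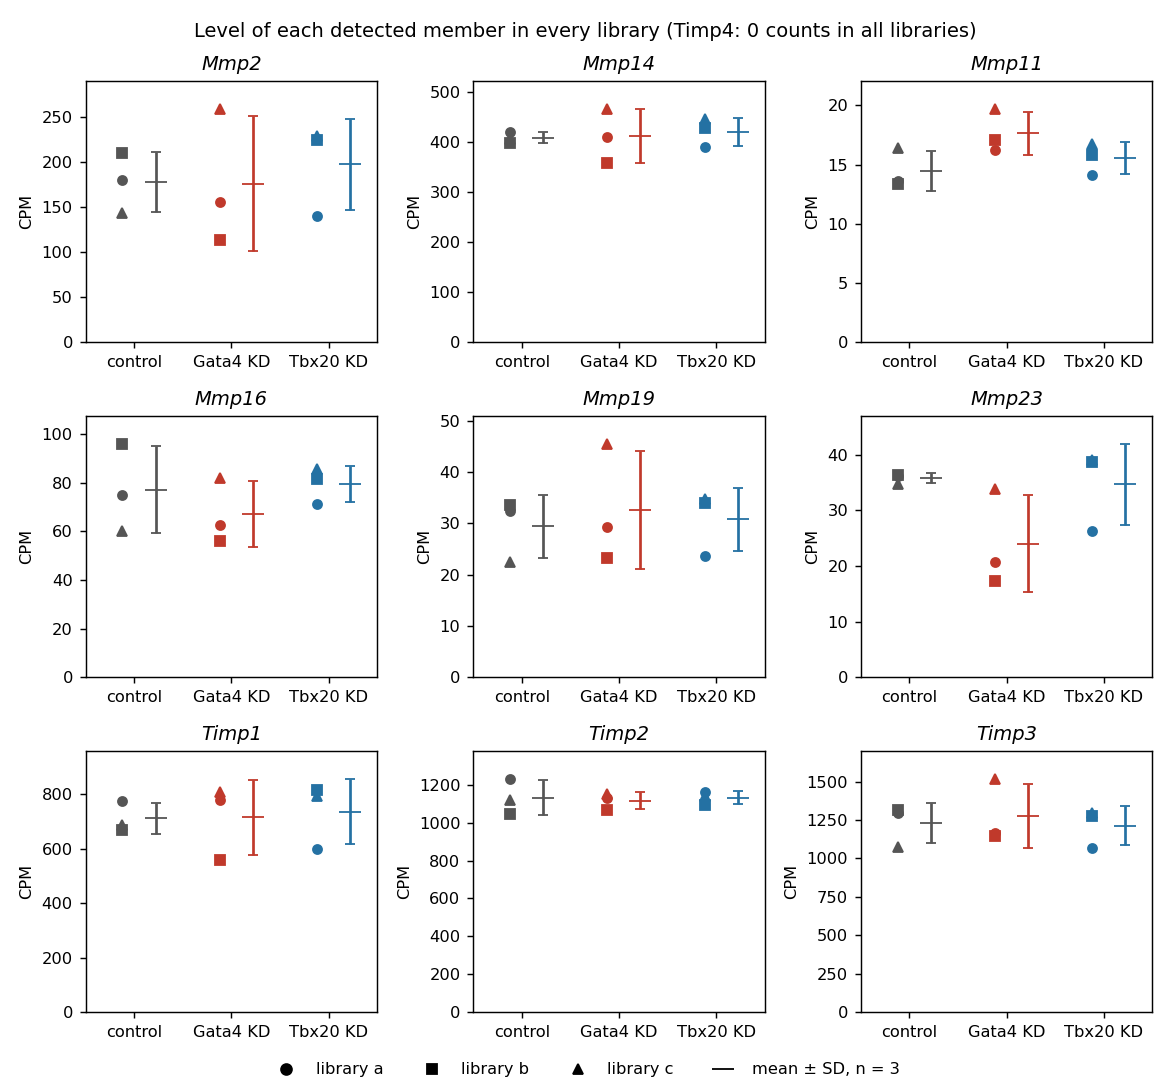
CPM (linear axis from 0) of each detected member in the 9 libraries, by group; circles, squares and triangles are libraries a, b and c, and bars give the mean ± SD of 3. Mmp23 is the only member whose Gata4 KD libraries, 17.3 to 33.8 CPM, all lie below the control libraries.

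To ask whether loss of Gata4 altered the enzymes or inhibitors, Gata4 KD was compared with control. None of the 9 tested members passed an adjusted p of 0.05, where 0.380% of all genes tested did (edgeR quasi-likelihood test, 14468 genes). DESeq2 and edgeR's exact test also called none of them. At an unadjusted p under 0.05 there were 2 members, beside 8.54% of all genes, and 1 member had groups that did not overlap, beside 13.8% of all genes. Those were Mmp23, at a log2 fold change of -0.58 (SE 0.22, edgeR adjusted p = 0.485), and Mmp11 at 0.29 (SE 0.12, edgeR adjusted p = 0.575).

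For the other 7 the estimates lay between -0.20 (Mmp16) and 0.15 (Mmp19) on the log2 scale, with adjusted p from 0.838 to 0.990 in edgeR. Leaving out 1 library at a time, the estimate for Mmp16 ran from -0.36 to -0.02. The intervals show how much change each could hide. For Timp2 the 95% interval was -0.22 to 0.18, for Mmp14 -0.23 to 0.25, for Timp1 -0.32 to 0.34 and for Timp3 -0.25 to 0.36. For Mmp2 it was -0.65 to 0.61 and for Mmp19 -0.42 to 0.71, so changes inside those bounds were not excluded for these genes. The intervals are not adjusted for the number of genes tested. The median over the 9 members was 0.01, and over all genes -0.02.

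Tbx20 KD against control used the same 3 control libraries. None of the 9 members passed, beside 0.00687% of all 14547 genes, which is 1 gene. No member reached an unadjusted p under 0.05, beside 2.69% of all genes, and none had groups that did not overlap, beside 6.74%. Estimates ran from -0.04 for Mmp23 to 0.16 for Mmp2 (SE 0.14 and 0.20), and adjusted p was 0.9997 for each in edgeR. The intervals were narrowest for Mmp14, -0.12 to 0.23, and Timp2, -0.17 to 0.20, and widest for Mmp2, -0.30 to 0.62. The median over the members was 0.05, and over all genes 0.00 on the log2 scale. DESeq2 and the exact test called none.

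Gata4 KD was also set directly against Tbx20 KD. None of the 9 members passed, beside 1.44% of all 14477 genes, and none by DESeq2 or the exact test. In the quasi-likelihood test none reached an unadjusted p under 0.05, beside 16.7% of all genes. None had groups that did not overlap, beside 23.0%. Mmp23 was at a log2 fold change of -0.53 (SE 0.26, edgeR adjusted p = 0.353), Mmp16 at -0.25 (SE 0.14, adjusted p = 0.424) and Mmp11 at 0.18 (SE 0.10, adjusted p = 0.402). Timp2 had the narrowest interval, -0.15 to 0.11.

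**Figure D3:**
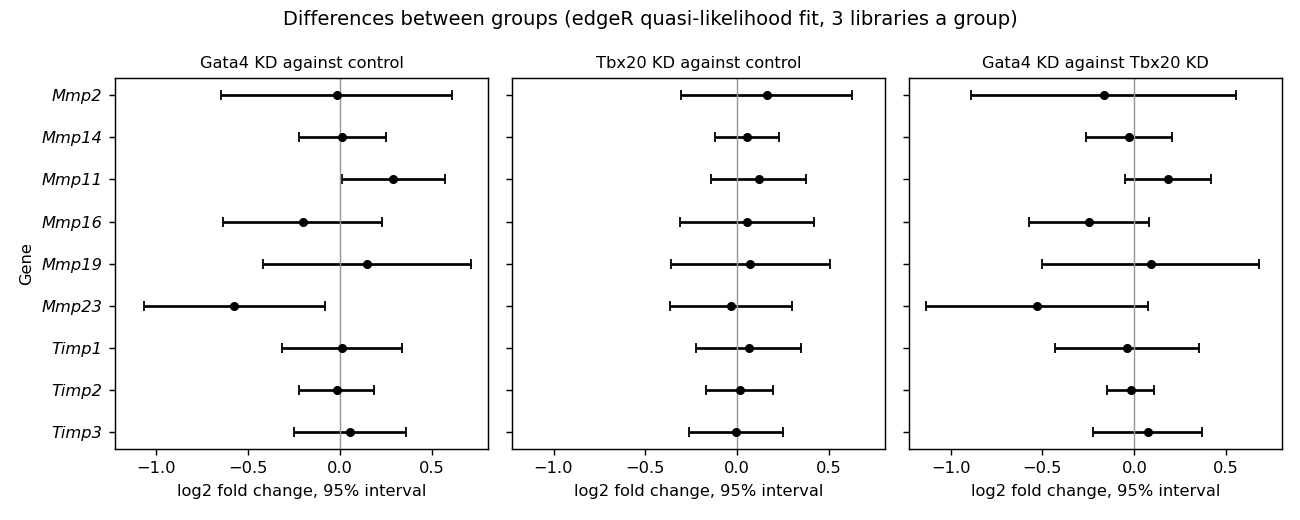
Log2 fold change of the 9 tested members in the 3 comparisons (points) with 95% intervals from the edgeR quasi-likelihood fit (bars), 3 libraries a group. Every interval crosses 0 except those of Mmp23 and Mmp11 in Gata4 KD against control, and none passed the correction over all genes.

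The Mmp23 result turned on 1 library. Without Gata4 KD c, Mmp23 was lower in Gata4 KD than in control by a log2 fold change of -0.88 (SE 0.11, edgeR adjusted p = 0.0328), 1 of 81 genes called among 14660. Without it, Mmp23 was also lower than in Tbx20 KD (-0.87, SE 0.18, edgeR adjusted p = 0.0396), and so was Mmp16 (-0.43, SE 0.09, adjusted p = 0.0408), among 801 genes called of 14656. Without any other Gata4 KD or control library, Mmp23 did not pass, at -0.60 to -0.39 against control. Gata4 KD c also held the most Gata4 of its group, 65.5 CPM. The part of that remaining Gata4 in the Mmp23 level was not tested.

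Gata4 KD c and Gata4 KD b lay at opposite ends for many members. Gata4 KD c was the highest library of its group for all 9 detected members. It was the highest of all 9 libraries for 5 of them, Mmp2, Mmp14, Mmp11, Mmp19 and Timp3. Gata4 KD b was the lowest of all 9 libraries for 5, Mmp2, Mmp14, Mmp16, Mmp23 and Timp1. On the log2 scale the median deviation of the 9 members from their own means was 0.18 in Gata4 KD c and -0.36 in Gata4 KD b. Tbx20 KD a, at -0.21, had 8 of 9 members below their mean. Tbx20 KD c and b, each at 0.15, had 9 and 8 members above. The same deviation was not taken over all genes, so these shifts are not read as particular to the family.

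**Figure D4:**
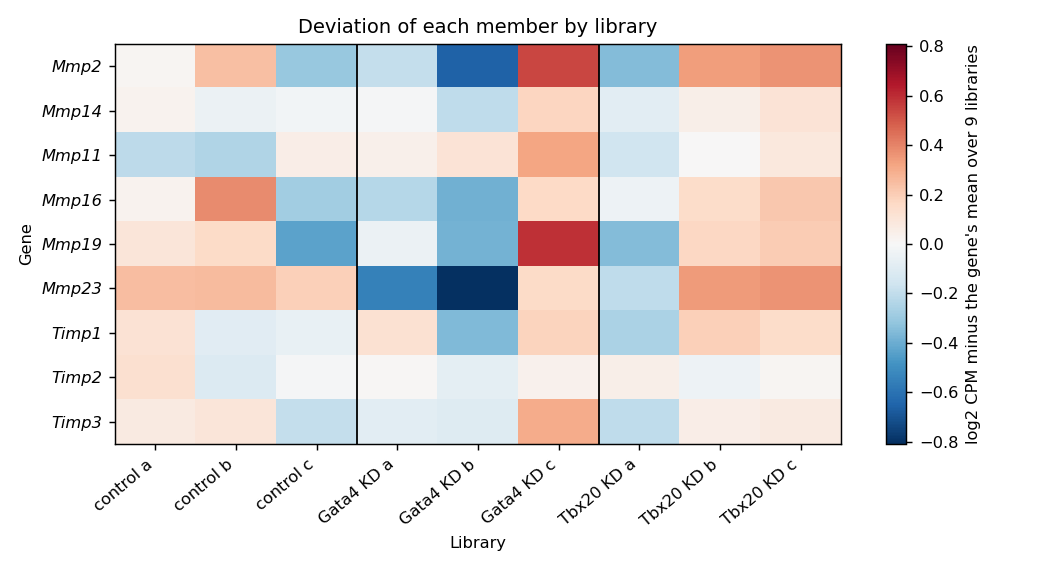
Log2 CPM of each detected member minus its mean over the 9 libraries (colour, blue below and red above the mean), with libraries in columns and lines between the groups. Gata4 KD c is above the mean for all 9 members, and Gata4 KD b is below it for 8.

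For most members the spread lay mostly within groups. Of the squared deviations of log2(CPM + 0.5) over the 9 libraries, 1.15% lay between the groups for Timp1, 1.79% for Timp2, 2.18% for Mmp19, 3.15% for Mmp14, 3.17% for Timp3 and 5.65% for Mmp2. For Mmp16 the share was 20.9%, and for Mmp11 and Mmp23 it was 50.01% and 50.7%. The median over 14622 genes was 24.7%. The ratio of the highest to the lowest library was 2.29 for Mmp2, 2.25 for Mmp23 and 2.03 for Mmp19, against a median of 1.41 over all genes.

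Some members moved together from library to library and others did not. Across the 9 libraries, which share their groups and depth, Mmp19 and Timp3 had Pearson's r of 0.967 (Spearman's rho 0.817), Mmp2 and Mmp19 0.929 (0.950), and Mmp14 and Timp1 0.895 (0.933). Leaving out the 2 libraries farthest from the median of the first gene, r was 0.922, 0.916 and 0.861. Mmp2 and Mmp14, the enzyme and its activator, had r of 0.880, and 0.694 without those 2 libraries. Timp2 followed neither, with r of 0.0968 to Mmp2 and 0.425 to Mmp14. Of the 36 pairs 13 had r over 0.7 and 4 had r below 0, among them Mmp11 with Mmp16 (-0.246) and with Mmp23 (-0.168), and the median was 0.556. With the mean of each group removed and the 9 libraries pooled, r of Mmp11 was 0.029 with Mmp16 and 0.638 with Mmp23. These pooled values do not describe each group by itself. In control, library c held the most Mmp11, 16.4 CPM, and the least Mmp16 and Mmp23, 60.3 and 34.7 CPM. The values rest on the knockdown and control libraries together. The share of pairs over 0.7 was not taken over all genes, so it is not read as particular to the family.

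Among 11667 genes, the patterns most like each member were sought as a description. Nearest to Mmp2 were Cables1 (r = 0.996) and Islr (0.991), and nearest to Mmp14 were Plod3 (0.993), a collagen lysyl hydroxylase, and Ntpcr (0.9753). Mmp16 was nearest to Megf9 (0.982) and Dnajc1 (0.981), and Mmp11 to Bcl9 (0.954) and Zfp629 (0.894). For Mmp19 they were Clmp (0.985) and Mrc2 (0.984), an endocytic collagen receptor, and for Mmp23 they were Rarg (0.986), a retinoic acid receptor, and Rnaset2b (0.982). Timp1 was nearest to Plod1 (0.971), also a collagen lysyl hydroxylase, and Coasy (0.959). Timp2 was nearest to Lcmt1 (0.938) and Kctd17 (0.929), and Timp3 was nearest to Cx3cl1 and B3glct (0.968 each). A search over so many genes with 9 libraries favours high values, and nothing is read from them.

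The summed level of the 4 TIMPs was set against that of the 6 metalloproteinases, each per kilobase of exon, in every library. The ratio was 8.33, 6.97 and 8.24 in control a, b and c, 9.04, 8.68 and 7.01 in Gata4 KD, and 8.00, 7.58 and 7.28 in Tbx20 KD. The means were 7.85 ± 0.762, 8.24 ± 1.08 and 7.62 ± 0.358 (SD, n = 3), and the groups overlapped. Gata4 KD c again differed from its group, with the lowest ratio of the 3. Gata4 KD c held the highest sums of both, 1394 CPM per kilobase of TIMPs and 199 of metalloproteinases, and Gata4 KD b the lowest, 1043 and 120. As a sum over RNA, the ratio says nothing of active protein.

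Genes that act with the family were read from 5 fixed lists, and none passed the adjusted threshold in any comparison. In bulk RNA, fewer cells of a type and less RNA per cell cannot be told apart. Of 7 other metalloproteinases 3 could be tested, Mmp15, Mmp17 and Mmp28, and the highest was Mmp17, at a mean of 3.88 CPM over the 9 libraries, followed by Mmp28 at 2.28 CPM. Mmp9, the other gelatinase, was at 0.149 CPM and was not tested, as were Mmp21, Mmp24 and Mmp25. Of 8 listed ADAM proteases, membrane-bound relatives that shed surface proteins, 7 were tested. Adam9 and Adam19 were the highest at 587 and 279 CPM, and no estimate in Gata4 KD against control lay beyond -0.19 (Adam8) or 0.16 (Adam12).

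Of 9 listed activators of the proenzymes 8 were tested. Bsg, a surface inducer of metalloproteinases, was at 254 CPM and Furin, which cuts proenzymes, at 159 CPM. Furin was at 169 ± 4.16 CPM in Gata4 KD, 153 ± 14.7 in control and 153 ± 5.76 in Tbx20 KD (SD, n = 3), with a log2 difference of 0.15 (SE 0.05) between the knockdowns (edgeR adjusted p = 0.195). Plau, the urokinase that generates plasmin, was at 72.7 ± 27.1 CPM in Gata4 KD, 40.4 ± 6.50 in control and 30.5 ± 9.22 in Tbx20 KD (SD, n = 3). Its log2 fold change was 1.25 (SE 0.31, edgeR adjusted p = 0.110) for Gata4 KD against Tbx20 KD, with no overlap, and 0.85 (SE 0.26, adjusted p = 0.350) against control. Neither passed, and Plau was the gene of the 5 lists with the largest estimate.

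Of 7 other inhibitors 5 were tested. Reck, a membrane-anchored inhibitor of metalloproteinases, was at a mean of 57.4 CPM over the 9 libraries and Serpine2, a serine protease inhibitor, at 186 CPM. For Reck the log2 fold change was 0.05 (SE 0.20) in Gata4 KD and 0.08 (SE 0.14) in Tbx20 KD against control. All 4 receptors and clearance genes were tested. Lrp1, which takes up protease and inhibitor complexes, was at 1491 ± 177 CPM in Gata4 KD, 1293 ± 171 in control and 1153 ± 90.6 in Tbx20 KD (SD, n = 3), at 0.37 (SE 0.10, edgeR adjusted p = 0.125) between the knockdowns. Cd63, a partner of Timp1 at the cell surface, was at 628 CPM and at -0.09 (SE 0.06, adjusted p = 0.503).

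Markers of other cell types moved with the groups in part. The 5 epicardial markers summed to 8.11 to 15.7 CPM in Gata4 KD, 23.3 to 44.8 in control and 25.4 to 41.2 in Tbx20 KD. In control and Tbx20 KD most of that sum was Lrrn4, at means of 24.8 and 25.4 CPM, against 2.39 CPM in Gata4 KD. Upk3b was at 0.854 CPM in Gata4 KD and 2.43 in control, without overlap, and Msln at 0.0485 and 0.168 CPM. Krt19, the largest part in Gata4 KD, was at 8.55 CPM there and 6.70 in control, and Wt1 at 0.819 and 0.748 CPM. The 5 smooth muscle and mural markers summed to 20.98 to 24.7 CPM in Gata4 KD, 14.1 to 17.4 in control and 13.2 to 16.5 in Tbx20 KD. Cnn1, at a mean of 12.2 CPM in Gata4 KD and 7.68 in control, and Rgs5, at 5.02 and 2.63 CPM, made up most of that difference, Myh11 was at 2.12 and 2.32 CPM, and Kcnj8 was near 0. The 6 macrophage markers summed to 22.7 to 41.9 CPM in Gata4 KD, 41.0 to 47.3 in control and 37.9 to 58.3 in Tbx20 KD, and the 5 endothelial markers to 34.2 to 51.4, 32.9 to 52.5 and 38.4 to 49.6 CPM in the same order of groups. Of the endothelial markers, Kdr was at 5.06 to 6.19 CPM in Gata4 KD and 2.29 to 3.47 in control, without overlap, Pecam1 at means of 8.30 and 5.55 CPM, and Tek at 22.1 and 27.98 CPM. Their part in the Mmp23 and Mmp11 estimates was not tested.

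RefSeq promoters (GRCm38.p6), from 250 bases before to 50 after a start, were given for 7 members as 8 windows, for Mmp11, Mmp14, Mmp23, Timp1, Timp2, Timp3 and Timp4. The letters AGATAA, a site that GATA factors recognise, occurred on either strand in none of the 8, and in 11.2% of all 32851 promoter windows. The T-box letters GGTGTGA occurred on either strand in none of the 8 and in 3.98% of all windows. This says only that these letters are not in these windows.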

How the data were processed

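Poly(A) RNA libraries of 9 samples were sequenced as 75-base single-end stranded reads. Per the study's methods, the authors trimmed and aligned the reads with Bowtie2 through RSEM, counting by strand, and deposited expected counts per Ensembl gene as whole numbers. The methods name GRCm38 as the genome, whereas the submitters' processing notes give mm9. Coordinates here are those of GENCODE M21 on GRCm38, in which 96.6% of the 38924 identifiers had a symbol, and 0.262% of counts fell on the rest.

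The members, gene lists and tests were chosen with earlier results of these data known. For each comparison, the 6 libraries were filtered with filterByExpr, scaled by TMM and tested with the edgeR 4.0.16 quasi-likelihood F test (R 4.3.3), two-sided, Benjamini-Hochberg adjusted over all genes tested, at 0.05. The fit was tested on simulated data. SE was the log2 fold change divided by the root of F. CPM used TMM factors over 9 libraries. Lengths were the union of annotated exons. Named genes were all members, the targeted genes, and for each member the 2 genes of highest r. Of each list, those past the threshold were named, and otherwise the 2 with the highest mean CPM. Plau, Reck, Adam8, Adam12, Mmp9, Mmp15 and the untested genes were named after their values were seen. Furin, Lrp1 and Cd63 are named by the rule, but which of their values to give was chosen after these were seen. A further gene that this rule names is not reported here. Alternatives were other scaling, filters, tools (DESeq2 1.42.0) and designs, and leaving out each library. Replicate letters did not pair the libraries: same-letter deviations correlated at -0.316 to 0.366. Those of different letters correlated at -0.582 (Gata4 KD c with Tbx20 KD a) to 0.525 (Gata4 KD b with Tbx20 KD a). Shared 75-base windows were sought with blastn 2.17.0.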

Additional observations from a re-analysis of the deposited data

How the results depend on the processing

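Libraries held 31214828 to 41950397 counts, and no alternative varied the depth. The 7 alternatives that kept all libraries of the groups compared called none of the 9 members in any comparison, as did leaving out any library but Gata4 KD c. Over the leave-one-out fits 0 to 1 members were called in Gata4 KD against control and 0 to 2 against Tbx20 KD, the upper values without Gata4 KD c. Over all genes, the counts called in Gata4 KD against control, Tbx20 KD against control and Gata4 KD against Tbx20 KD were 55, 1 and 208 in the quasi-likelihood test, 273, 10 and 761 in DESeq2, 250, 8 and 729 in the exact test, 121, 2 and 324 without a filter, and 148, 1 and 191 with all 9 libraries in 1 fit. The replicate block, which the letters did not support, gave 5, 2 and 101. For Gata4 KD against Tbx20 KD, the count of members at an unadjusted p under 0.05 varied with the fit. It was 0 in the main test and with library size alone. It was 1 in DESeq2, in the exact test, without a filter and with all 9 libraries in 1 fit. It was 3 with the replicate block and without Gata4 KD c. The share of all genes was taken for the main test only.

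Timp1 in Gata4 KD against control turned to -0.0025 with library size alone and to -0.0068 with the replicate block, and Timp3 in Tbx20 KD against control to 0.00093 with library size alone, so no sign is read from these differences near 0; of 189 such values the other 186 kept their sign and side of the threshold. Leaving out each library in turn changed the sign of 38 of 162 values. Against control, these ranges for Gata4 KD were -0.38 to 0.22 for Mmp2, -0.062 to 0.10 for Mmp14, -0.15 to 0.34 for Mmp19, -0.064 to 0.16 for Timp1, -0.074 to 0.045 for Timp2 and -0.067 to 0.13 for Timp3. For Tbx20 KD they were -0.092 to 0.25 for Mmp16, -0.087 to 0.23 for Mmp19, -0.13 to 0.13 for Mmp23, -0.022 to 0.19 for Timp1, -0.036 to 0.071 for Timp2 and -0.092 to 0.076 for Timp3. For Gata4 KD against Tbx20 KD they were -0.56 to 0.070 for Mmp2, -0.14 to 0.059 for Mmp14, -0.24 to 0.28 for Mmp19, -0.17 to 0.11 for Timp1, -0.048 to 0.011 for Timp2 and -0.078 to 0.14 for Timp3. The ranges that kept their sign were, for Gata4 KD against control, -0.36 to -0.016 for Mmp16, 0.23 to 0.39 for Mmp11 and -0.88 to -0.39 for Mmp23. For Tbx20 KD against control they were 0.032 to 0.36 for Mmp2, 0.013 to 0.11 for Mmp14 and 0.060 to 0.22 for Mmp11, and for Gata4 KD against Tbx20 KD -0.43 to -0.13 for Mmp16, 0.094 to 0.25 for Mmp11 and -0.87 to -0.34 for Mmp23. Where a group was left with 2 libraries the spread was still estimated over both groups.

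With the longest transcript as length, the ratio of TIMPs to metalloproteinases was 5.74 in control, 6.05 in Gata4 KD and 5.60 in Tbx20 KD, and the control levels of Mmp14, Mmp11, Mmp16, Mmp23 and Timp3 were 126, 6.32, 15.4, 24.9 and 260 CPM per kilobase, because the lengths themselves differ.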
